A study of Mus musculus with 151 samples.

Results

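A set of 10 genes known for committing the fetal gonad to an ovary and for the identity of the pregranulosa cells that enclose the first oocytes were followed through the ovaries, germ cells and cumulus cells of IVF-conceived mice and of naturally conceived controls (Natural). The 10 genes were Wnt4, Rspo1, Lgr5, Bmp2, Fst, Foxl2, Runx1, Gata4, Wt1 and Emx2. They were taken by name from each of 7 count tables, which held all 10 of them among 35976 gene names per table. Natural mice came from matings of CF-1 females with B6/SJL males. IVF-conceived mice came from eggs of superovulated CF-1 females that were fertilized with sperm of B6/SJL males, cultured to blastocysts and transferred to CF-1 recipients, so superovulation, culture and transfer cannot be told apart. Whole ovaries were sequenced from 4 Natural and 6 IVF fetuses at E18.5, from 4 Natural and 5 IVF females at 12 weeks and from 5 females of each group at 39 weeks, where 1 Natural ovary is labelled 40 weeks. The low-input libraries were pools of 100 primordial germ cells (PGCs) at E13.5 (4 and 5), single oocytes at 12 weeks (36 and 40) and 39 weeks (9 and 10), and cumulus cells at 12 weeks (5 and 5). Oocytes and cumulus cells came from hormone-stimulated females. No gene was deleted. Only the egg donors of the IVF group received hormones for conception, and no drug was given to the offspring of 1 group alone. The methods give the day of fetal collection differently for the IVF pregnancies, and a difference in fetal age cannot be told apart from the mode of conception.

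In an XX gonad, the secreted proteins WNT4 and RSPO1 stabilize β-catenin in the supporting cells and hold back the testis programme. FOXL2 and RUNX1 then maintain the pregranulosa state, follistatin and BMP2 are signals produced by these cells, and LGR5, a receptor for R-spondins, marks the supporting cells at the ovarian surface and cortex before birth. GATA4, WT1 and EMX2 act earlier, in building the bipotential gonad, and GATA4 and WT1 remain in granulosa lineages while EMX2 is best known from coelomic and Müllerian epithelium.

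In mouse genome GRCm38, with the GENCODE M21 annotation, Wnt4 lies at chr4:137277489-137299726 and Rspo1 at chr4:124986430-125009099, both on the plus strand. Lgr5 lies at chr10:115450311-115587780, Fst at chr13:114452290-114458951, Runx1 at chr16:92601466-92826149 and Gata4 at chr14:63198922-63271692, all on the minus strand. Bmp2 lies at chr2:133552159-133562885, Wt1 at chr2:105126529-105173616, Foxl2 at chr9:98955288-98958543 and Emx2 at chr19:59458372-59465357, all on the plus strand. Of the 10 genes, 6 overlap a transcript annotated on the opposite strand, among them Foxl2 with Foxl2os and Emx2 with Emx2os. Whether reads were counted by strand is not stated for these tables, and without strand the reads of such partners cannot be told apart. In the ovaries Foxl2os was counted at 23.4 to 173 CPM, which are counts scaled to the size of the library, and Emx2os at 3.10 to 33.9 CPM.

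The RefSeq promoter table for GRCm38.p6 held 6 windows for 5 of the genes, which were Wnt4, Rspo1, Foxl2, Runx1 (2 start sites) and Emx2, and no entry for Lgr5, Bmp2, Fst, Gata4 or Wt1. The 250 bases upstream of the start are shown for the 2 windows that hold no annotated exon, because Rspo1 fell with age in every comparison made and because all Runx1 counts sum over transcripts from both starts. Capitals mark CpG dinucleotides. The Rspo1 window (chr4:124986180-124986429, plus strand) held 22 of them, as many as or more than which were found in 14.8% of promoters in the table, and the window of the proximal Runx1 start (chr16:92697330-92697579, minus strand) held 27, reached by 8.56% of promoters.
Rspo1: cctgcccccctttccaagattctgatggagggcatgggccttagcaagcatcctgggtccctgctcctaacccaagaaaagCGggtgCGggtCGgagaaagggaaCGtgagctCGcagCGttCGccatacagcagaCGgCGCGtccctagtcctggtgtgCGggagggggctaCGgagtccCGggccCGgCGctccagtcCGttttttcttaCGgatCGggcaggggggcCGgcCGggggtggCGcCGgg
Runx1, proximal start: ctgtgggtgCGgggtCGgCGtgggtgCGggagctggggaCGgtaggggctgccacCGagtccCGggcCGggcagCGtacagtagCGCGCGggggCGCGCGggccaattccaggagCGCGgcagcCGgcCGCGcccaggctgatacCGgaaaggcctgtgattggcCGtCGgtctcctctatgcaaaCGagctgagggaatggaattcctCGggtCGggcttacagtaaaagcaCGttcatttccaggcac
The distal Runx1 window held 2 CpGs, so the 2 starts of this gene differ in CpG content. Searched on both strands, the 6 windows held no match to the GATA factor motifs AGATAA and, differing in its first base, TGATAA (in 16.6% of promoters of the same length), to TAAACA (forkhead factors, 12%), to TGTGGT (RUNX factors, 14%), to the TCF/LEF motifs CTTTGAT and, differing in its last base, CTTTGAA (7.48%), to TAATTA (homeobox factors, 4.84%) or to GTGGGAG (WT1, 8.25%).

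Total counts per ovary ranged from 6995713 to 14830788 at E18.5, from 2839022 to 43363799 at 12 weeks and from 18079970 to 38751638 at 39 weeks. The lowest total was that of 12-week IVF ovary 4, and the smallest count of any of the 10 genes in an ovary was 34, for Rspo1 in a 12-week IVF ovary. Ovary levels below are CPM on 1 scale fitted over the 29 ovaries, errors are SD over ovaries, and fold changes between Natural and IVF come from a separate fit at each age. A gene was called at a Benjamini-Hochberg adjusted p below 0.05 in edgeR's quasi-likelihood test over all genes tested at that age. In whole ovaries, fewer cells of a type and less RNA per cell cannot be told apart. The methods take the ovaries of a group from separate litters but allow littermates among adults, and which ovaries were littermates is not given.

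Per kilobase of exon, the order of the genes changed between the fetal and the adult ovary. In Natural E18.5 ovaries the medians were 49.5 CPM per kb for Foxl2, 46.8 for Wnt4, 41.2 for Emx2, 39.6 for Wt1 and 39.4 for Rspo1, a close group, followed by 28.3 for Gata4. Fst (6.88), Bmp2 (5.11), Lgr5 (4.26) and Runx1 (3.19) stood well below them. At 39 weeks Wnt4 led with 128 CPM per kb, followed by Foxl2 (76.6) and Gata4 (53.3). Emx2 had fallen to 7.66 and Rspo1 to 6.53, levels among those of Lgr5 (6.57), Runx1 (6.29) and Bmp2 (5.96). At 12 weeks Foxl2 was again highest at 63.8, and Wnt4 (41.1), Gata4 (32.8), Wt1 (20.8), Emx2 (19.1), Fst (19.0) and Rspo1 (10.6) came next, above Runx1 and Bmp2 (4.97 each) and Lgr5 (2.75).

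**Figure D1:**
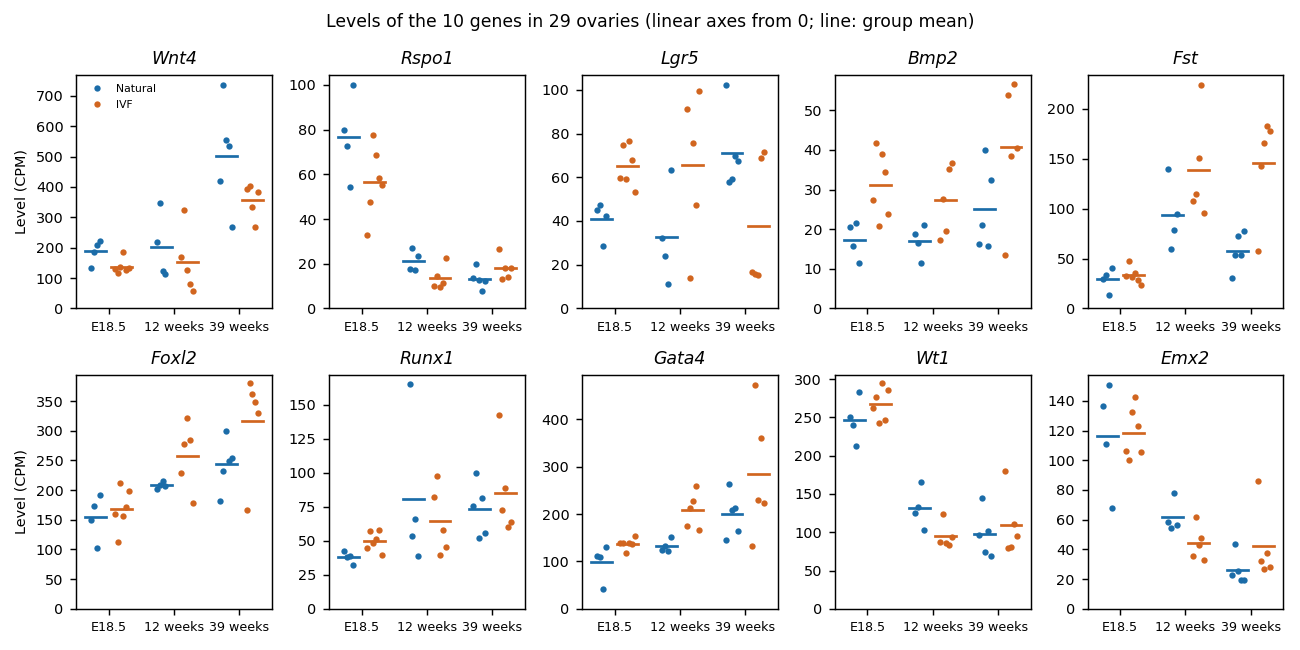
Levels of the 10 genes in each of 29 ovaries, in CPM on linear axes from 0, in fetal (E18.5), 12-week and 39-week ovaries, with Natural and IVF ovaries as separate points and a line at each group mean. Rspo1 lay at 32.7 to 100 CPM at E18.5 and at 7.70 to 27.2 in adults, and Wt1 at 212 to 294 and at 68.8 to 180. Of all genes, 49.7% to 61.2% were called between E18.5 and adult ovaries.

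At E18.5, Lgr5 and Bmp2 were higher in IVF-conceived than in Natural ovaries, and the other 8 genes did not pass the test. Of the 10 genes, 8 had a positive and 2 a negative log2 fold change, and 2 of 10 were called, where 5.43% of the 16415 genes tested were called. Their median log2 fold change was 0.19, against 0.00 over all genes tested. An unadjusted p below 0.05 was reached by 5 of the 10 genes and by 24.1% of all genes.

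Lgr5, the R-spondin receptor, measured 45.1, 47.4, 28.4 and 42.5 CPM in the 4 Natural ovaries. In the 6 IVF ovaries its lowest value was 53.2, its median 63.8 and its highest 76.7 CPM. Every IVF ovary was above every Natural ovary, as 1 of the 10 genes showed and 9.17% of all genes tested did in either direction. The fold change was 1.64 (log2 fold change 0.71, SE 0.15, adjusted p = 0.0230). Without IVF ovary 2 or IVF ovary 4, the 2 highest, the adjusted p was 0.0511 or 0.0519.

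Bmp2, a secreted BMP ligand of ovarian supporting cells, measured 20.6, 15.7, 21.5 and 11.5 CPM in Natural ovaries and from 20.7 to 41.8 CPM, with a median of 31.0, in IVF ovaries. The groups overlapped only between the lowest IVF ovary and the highest Natural ovary. The mean was 17.4 ± 4.64 CPM (SD, n = 4) in Natural and 31.2 ± 8.49 (n = 6) in IVF, a fold change of 1.85 (log2 0.89, SE 0.23, adjusted p = 0.0379). This call was not kept when IVF ovary 1, 2, 4, 5 or 6 or Natural ovary 2 or 4 was left out, with adjusted p from 0.0503 to 0.102.

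The ligand genes Wnt4 and Rspo1 had lower estimates in IVF ovaries. Wnt4 measured 134.7, 185, 208 and 223 CPM in Natural ovaries, and 116 to 185 with a median of 130 CPM in IVF ovaries, and the ranges overlapped through Natural ovary 1 and IVF ovary 4. Its log2 fold change of -0.43 (SE 0.16) had an adjusted p of 0.132, which became 0.0185 without Natural ovary 1, with a log2 fold change of -0.58. Rspo1 measured 80.0, 72.7, 54.1 and 100 CPM in Natural ovaries and 32.7 to 77.3 with a median of 56.9 in IVF ovaries (log2 fold change -0.40, SE 0.22, adjusted p = 0.271).

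Among the transcription factors, Runx1 came nearest to the threshold. It measured 42.2, 37.8, 38.8 and 31.9 CPM in Natural ovaries and 39.7 to 57.9 with a median of 49.97 in IVF ovaries, with only IVF ovary 6 inside the Natural range. Its log2 fold change was 0.44 (SE 0.13, adjusted p = 0.0616), and DESeq2's Wald test, which called 10.5% of genes at this age, gave an adjusted p of 0.0309, while without Natural ovary 1 edgeR gave 0.0496. Gata4, a zinc finger factor needed for the gonadal ridge, measured 112, 109, 41.1 and 130 CPM in Natural ovaries and 117 to 154 in IVF ovaries (log2 fold change 0.52, SE 0.23, adjusted p = 0.188). The value of 41.1 was that of Natural ovary 3, which also had the lowest Fst (13.3), Foxl2 (102), Wt1 (212), Rspo1 (54.1) and Lgr5 (28.4) of the Natural group.

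Fst, the activin antagonist follistatin, and the factors Foxl2, Wt1 and Emx2 had log2 fold changes of 0.21 (SE 0.26, adjusted p = 0.653), 0.16 (SE 0.19, adjusted p = 0.646), 0.15 (SE 0.10, adjusted p = 0.395) and 0.06 (SE 0.18, adjusted p = 0.872) at E18.5. Wt1 was the steadiest of the 10, at 212 to 284 CPM in Natural and 243 to 294 CPM in IVF ovaries. Foxl2 spanned 102 to 192 CPM and 113 to 212 CPM. The estimates for Fst and Emx2 turned negative when 1 Natural ovary was left out.

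At 12 weeks none of the 10 genes was called (0 of 10, beside 0.00567% of the 17628 genes tested), with 5 estimates up and 5 down and a median log2 fold change of 0.00 for the 10 genes and 0.01 for all genes. An unadjusted p below 0.05 was nevertheless reached by 5 of the 10 genes, Gata4, Wt1, Bmp2, Emx2 and Rspo1, where 14.4% of all genes reached it, and DESeq2 called 1 of the 10, beside 3.42% of the genes it tested.

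That gene was Gata4, which measured 124, 132, 122 and 152 CPM in Natural ovaries and 175, 212, 227, 258 and 167 CPM in IVF ovaries. All 5 IVF values were above all 4 Natural values, which only Gata4 among the 10 showed, beside 5.97% of all genes without overlap. The mean rose from 133 ± 13.8 CPM (SD, n = 4) to 208 ± 37.8 (n = 5), with a log2 fold change of 0.66 (SE 0.14, unadjusted p = 0.000905), and the 2 tools differed on the call, with an adjusted p of 0.152 in edgeR and 0.00622 in DESeq2.

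Wt1, a zinc finger factor of the gonadal ridge and of granulosa cells, measured 125, 133, 166 and 103 CPM in Natural and 87.7, 123, 86.6, 82.8 and 93.8 CPM in IVF ovaries (log2 fold change -0.46, SE 0.15, adjusted p = 0.240). Emx2 measured 58.3, 54.2, 78.3 and 56.6 CPM against 35.7, 61.8, 43.0, 47.9 and 32.8 CPM (log2 fold change -0.47, SE 0.19, adjusted p = 0.30005). In both genes 4 of the 5 IVF ovaries lay below all Natural ovaries, and IVF ovary 2 was the exception. Rspo1 measured 17.7, 27.2, 17.3 and 23.4 CPM against 9.91, 14.3, 9.70, 11.3 and 22.4 CPM (log2 fold change -0.64, SE 0.27, adjusted p = 0.325), again with 4 of 5 IVF values under the Natural range, IVF ovary 5 being the exception.

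The summed markers of 2 epithelia were also lower in IVF than in Natural ovaries at 12 weeks. The summed level of 7 surface epithelium markers was 741 to 1051 CPM in Natural and 151 to 448 CPM in IVF ovaries at 12 weeks, and that of 10 markers of oviduct and rete epithelium was 3354 to 7780 and 37.5 to 3032 CPM. All 7 surface markers were counted in each of these ovaries, and all 10 oviduct and rete markers in each but IVF ovary 3, where 3 were at 0. IVF ovary 5, with the highest Rspo1 of the IVF group, had sums of 304 and 761 CPM, and IVF ovary 2 had the highest sums of that group. Pearson's r was taken over the 29 ovaries of all ages after group means were subtracted. For the surface epithelium sum it was 0.73 with Emx2, 0.58 with Wt1 and 0.49 with Rspo1. For the oviduct and rete sum it was 0.59, 0.57 and 0.30 in the same order. These values are descriptions, not of 12 weeks alone, and genes of 1 library share its depth and dissection. Gata4, which was higher in IVF ovaries at 12 weeks, had an r of -0.53 with the surface epithelium sum and -0.51 with the oviduct and rete sum. The part of these tissues in the values of Gata4 and of the 3 genes was not tested.

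The remaining genes varied widely between 12-week ovaries. Lgr5 spanned 11.2 to 63.4 CPM in Natural and 14.0 to 99.5 CPM in IVF ovaries, with 3 of the 5 IVF values above the highest Natural one (log2 fold change 1.01, SE 0.58, adjusted p = 0.443). Wnt4 spanned 114 to 348 and 57.3 to 325 CPM (log2 fold change -0.39, SE 0.50, adjusted p = 0.744). Bmp2 had a log2 fold change of 0.69 (SE 0.27, adjusted p = 0.292), Fst 0.57 (SE 0.29, adjusted p = 0.402) and Foxl2 0.32 (SE 0.15, adjusted p = 0.365). Foxl2 was nearly constant in Natural ovaries, at 202 to 215 CPM, and spanned 179 to 321 CPM in IVF ovaries. Runx1 reached 165 CPM in Natural ovary 1 against 38.8 to 97.6 CPM in the other 8, and its estimate of -0.31 (SE 0.42, adjusted p = 0.762) changed sign without that ovary.

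At 39 weeks again none of the 10 genes was called (0 of 10, beside 0.262% of the 17186 genes tested), 8 estimates were positive and 2 negative, and their median log2 fold change was 0.43 against 0.03 for all genes. An unadjusted p below 0.05 was reached by Fst alone, 1 of 10, beside 19.2% of all genes, and DESeq2 called 1 of the 10, also Fst, beside 6.66% of the genes it tested. None of the 10 genes had groups without overlap, beside 5.18% of all genes.

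Fst measured 30.2, 53.2, 72.8, 53.6 and 78.0 CPM in Natural ovaries and 57.9, 143, 166, 182 and 178 CPM in IVF ovaries. Of the 5 IVF ovaries, 4 were above all Natural ovaries, and IVF ovary 1 lay within their range. The mean was 57.6 ± 18.9 CPM (SD, n = 5) in Natural and 145 ± 51.1 CPM (n = 5) in IVF, a fold change of 2.52 (log2 1.34, SE 0.32, unadjusted p = 0.0015). The adjusted p was 0.0915 in edgeR and 0.00194 in DESeq2, and edgeR gave 0.0275 without IVF ovary 1, with a log2 fold change of 1.53.

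IVF ovary 1 at 39 weeks also stood apart in other genes. It held the highest Emx2 (86.2 CPM against 26.9 to 37.4 in the other 4 IVF ovaries), Runx1 (142 against 60.3 to 88.4) and Wt1 (180 against 79.6 to 111), and the lowest Foxl2 (166 against 330 to 380), Gata4 (132 against 223 to 472) and Bmp2 (13.5 against 38.6 to 56.8). Its summed oviduct and rete markers were 9121 CPM against at most 115 in the other IVF ovaries, and its surface epithelium markers 1764 CPM against at most 286. The oviduct list includes Ovgp1, the oviductal glycoprotein, and Foxj1, a factor of ciliated cells, and all 10 of its markers were counted in this ovary. With this ovary, the log2 fold changes were 0.72 for Emx2 (SE 0.37, adjusted p = 0.310), 0.25 for Runx1 (SE 0.27, adjusted p = 0.622) and 0.20 for Wt1 (SE 0.27, adjusted p = 0.712), and without it they were 0.24, -0.039 and -0.087 in the same order.

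Lgr5 and Wnt4 had the only negative estimates at 39 weeks. Lgr5 measured 102, 58.0, 59.0, 69.6 and 67.4 CPM in Natural ovaries. In IVF ovaries it measured 16.9, 15.7, 15.4, 68.7 and 71.7 CPM, so that 3 IVF ovaries lay far under the Natural range and 2 within it (log2 fold change -0.92, SE 0.47, adjusted p = 0.308). Wnt4 measured 418, 736, 553, 535 and 268 CPM against 392, 404, 335, 269 and 382 CPM (log2 fold change -0.48, SE 0.24, adjusted p = 0.296).

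Bmp2, Gata4, Rspo1 and Foxl2 had positive estimates at 39 weeks that did not pass, of 0.69 (SE 0.37, adjusted p = 0.326), 0.52 (SE 0.30, adjusted p = 0.355), 0.47 (SE 0.27, adjusted p = 0.359) and 0.38 (SE 0.21, adjusted p = 0.324). Foxl2 measured 182, 232, 300, 249 and 255 CPM in Natural ovaries and 166, 380, 362, 348 and 330 CPM in IVF ovaries, with 4 of the 5 IVF values above the Natural range. Gata4 reached 472 CPM in IVF ovary 2, and its Natural values spanned 146 to 264 CPM.

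**Figure D2:**
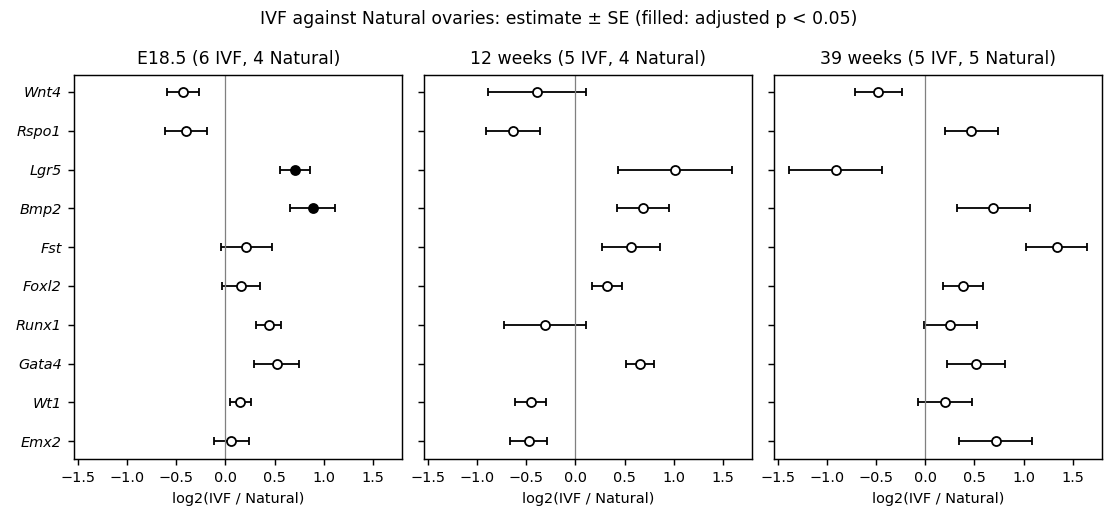
Log2 fold changes of IVF over Natural ovaries for the 10 genes in fetal (E18.5), 12-week and 39-week ovaries, with bars of ± 1 SE from edgeR and filled points for genes called at an adjusted p below 0.05. The 2 filled points are Lgr5 (0.71) and Bmp2 (0.89) at E18.5, and the largest estimate at 39 weeks is that of Fst (1.34).

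The summed level of 10 markers of growing granulosa cells, which include Amh, Fshr and Cyp19a1, moved with several of these genes. It was 232 to 362 CPM in Natural and 200 to 277 CPM in IVF ovaries at E18.5, 2139 to 3365 and 3244 to 6581 CPM at 12 weeks, and 1200 to 3862 and 1957 to 6600 CPM at 39 weeks. After group means were subtracted, its Pearson r over the 29 ovaries was 0.80 with Fst, 0.68 with Foxl2, 0.64 with Gata4 and 0.59 with Bmp2, again a description. Lgr5 and Bmp2 were closest to other lists. Lgr5 had an r of 0.74 with the sum of 7 steroidogenic markers, which was 11549 to 22936 CPM in Natural and 9740 to 29462 CPM in IVF ovaries at 12 weeks and 20536 to 33478 and 11103 to 25542 CPM at 39 weeks. Bmp2 had an r of 0.66 with the sum of 6 endothelial markers, which was 353 to 568 CPM in Natural and 329 to 395 CPM in IVF ovaries at E18.5. Wnt4 had its highest r, 0.69, with 5 stromal markers, and Runx1 its highest, 0.61, with the oviduct and rete markers.

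Some markers of other lists were called for conception at E18.5, where 5.43% of the 16415 genes tested were called. The sum of the 6 erythroid markers was 603 to 1468 CPM in Natural and 1483 to 4230 CPM in IVF ovaries, with 2 of the 6 called higher. The surface epithelium sum was 660 to 1224 CPM in Natural and 457 to 724 CPM in IVF ovaries, with 1 of its 7 genes called lower. Of the genes with the highest r with this sum, Rspo1 had a negative estimate at this age. Emx2 (log2 fold change 0.06) and Wt1 (0.15) had positive ones. Of the 6 endothelial markers 2 were called lower, of the 6 tested steroidogenic markers 3 higher, of the 11 tested germ cell markers 2 lower and of the 8 tested oviduct and rete markers 1 lower. The part of these cells in the differences of the 10 genes was not tested.

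**Figure D3:**
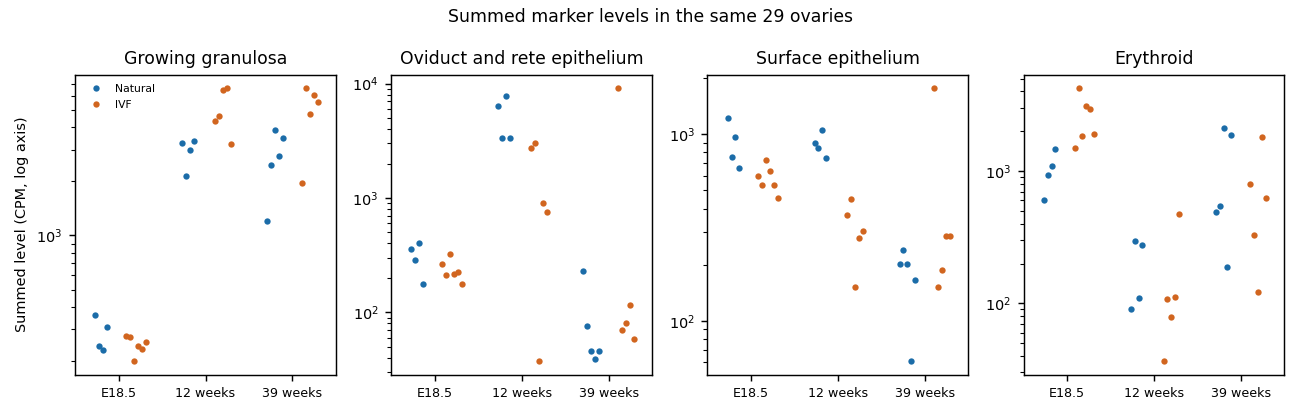
Summed CPM of 4 marker lists in each of 29 ovaries, on a log axis, for Natural and IVF ovaries at 3 ages. Growing granulosa markers lay at 200 to 362 CPM at E18.5 and at 1200 to 6600 CPM in adults, and the 39-week IVF ovary with 9121 CPM of oviduct and rete markers stands above the other ovaries of its age.

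Whether the change with IVF itself differed between ages was tested as an interaction in a fit over the 29 ovaries. None of the 10 genes was called, beside 0.314% of 19724 genes for 12 weeks against E18.5, 7.95% for 39 weeks against E18.5 and 2.71% for 39 weeks against 12 weeks. An unadjusted p below 0.05 was reached by 0, 3 and 4 of the 10 genes, beside 14%, 25.4% and 20% of all genes. DESeq2 called 0, 0 and 1 of the 10, beside 2.16%, 13.5% and 7.77% of the genes it tested. For Lgr5 the difference between 39 and 12 weeks was -1.92 (SE 0.67, adjusted p = 0.0981 in edgeR and 0.0390 in DESeq2), and the edgeR value was 0.0420 without 12-week IVF ovary 2 and 0.0434 without 39-week IVF ovary 5. Emx2 and Rspo1 had differences of 1.17 (SE 0.40, adjusted p = 0.0941) and 1.09 (SE 0.38, adjusted p = 0.0976) in the same contrast, and of 0.74 and 0.91 without 39-week IVF ovary 1. For Fst the difference between 39 weeks and E18.5 was 1.15 (SE 0.44, adjusted p = 0.102), and the adjusted p was 0.0469 without E18.5 Natural ovary 3 and 0.0398 without 39-week IVF ovary 1. Over the 3 ages, Bmp2 had estimates of 0.89, 0.69 and 0.69, and Wnt4 of -0.43, -0.39 and -0.48, while Lgr5 went from 0.71 and 1.01 to -0.92.

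More of the 10 genes were called with age than with conception, as was so for all genes. From E18.5 to the adult ovary, Rspo1, Wt1 and Emx2 fell in all 4 comparisons, Fst rose in all 4, and Lgr5 and Bmp2 were called in none. Of the 10 genes, 5 were called in Natural ovaries at 12 weeks (beside 49.7% of 19724 genes), 6 in IVF ovaries at 12 weeks (59%), 8 in Natural ovaries at 39 weeks (53.6%) and 8 in IVF ovaries at 39 weeks (61.2%). Each conception group's 12-week and 39-week comparisons share the same E18.5 ovaries, so they are not independent of each other. Age, library preparation and sequencing run cannot be told apart across the ovary tables.

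Rspo1, the secreted amplifier of Wnt signals, had the steepest fall. Its mean was 76.7 ± 19.0 CPM (SD, n = 4) in Natural ovaries at E18.5, 21.4 ± 4.78 (n = 4) at 12 weeks and 13.2 ± 4.39 (n = 5) at 39 weeks. In IVF ovaries it was 56.7 ± 15.7 (n = 6), 13.5 ± 5.29 (n = 5) and 18.0 ± 5.26 CPM (n = 5). The log2 fold changes from E18.5 were -1.84 (SE 0.30, adjusted p = 1.18e-05) and -2.54 (SE 0.28, adjusted p = 2.90e-08) in Natural ovaries and -2.05 (SE 0.26, adjusted p = 2.51e-07) and -1.66 (SE 0.26, adjusted p = 3.96e-06) in IVF ovaries. The fall was thus 3.59-fold by 12 weeks and 5.80-fold by 39 weeks in Natural ovaries.

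Wt1 fell from 247 ± 29.5 CPM in Natural E18.5 ovaries to 131 ± 26.1 at 12 weeks and 97.1 ± 30.0 at 39 weeks, by 0.91 (SE 0.22, adjusted p = 0.00122) and 1.34 (SE 0.21, adjusted p = 4.47e-06) on the log2 scale. In IVF ovaries its log2 fold changes were -1.49 (SE 0.19) and -1.29 (SE 0.19). Emx2 fell from 117 ± 36.3 CPM to 61.8 ± 11.1 and 26.2 ± 10.2 CPM in Natural ovaries, with log2 fold changes of -0.91 (SE 0.31, adjusted p = 0.0155) and -2.15 (SE 0.30, adjusted p = 9.03e-07), and of -1.42 and -1.49 in IVF ovaries. The Natural 12-week call of Emx2 had an adjusted p of 0.0592 without E18.5 Natural ovary 3. Emx2os fell alongside, from 14.9 to 33.9 CPM at E18.5 to 3.10 to 14.5 CPM in adults.

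Fst rose from 29.3 ± 11.6 CPM in Natural E18.5 ovaries to 93.5 ± 34.2 at 12 weeks and 57.6 ± 18.9 at 39 weeks, with log2 fold changes of 1.67 (SE 0.36, adjusted p = 0.000371) and 0.97 (SE 0.34, adjusted p = 0.0172). In IVF ovaries it rose from 33.3 ± 8.25 to 139 ± 51.8 and 145 ± 51.1 CPM, with log2 fold changes of 2.04 (SE 0.30) and 2.12 (SE 0.30). The Natural 39-week call was lost without E18.5 Natural ovary 3, the ovary with the lowest Fst (adjusted p = 0.0770), and when libraries were scaled by total counts alone (adjusted p = 0.0610).

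Wnt4 stayed near its fetal level at 12 weeks, with log2 fold changes of 0.10 in Natural and 0.16 in IVF ovaries that did not pass, and was higher at 39 weeks, by 1.42 (SE 0.37, adjusted p = 0.00205) and 1.38 (SE 0.32, adjusted p = 0.000659). Its mean was 188 ± 38.7 CPM in Natural ovaries at E18.5 and 502 ± 173 at 39 weeks. Gata4 rose by 1.02 (SE 0.28, adjusted p = 0.00297) and 1.05 (SE 0.25, adjusted p = 0.000625) on the log2 scale by 39 weeks in Natural and IVF ovaries. Its IVF 12-week call (0.60, SE 0.25, adjusted p = 0.0387) was lost when any of E18.5 IVF ovaries 2, 3 or 4 or 12-week IVF ovaries 2, 3 or 4 was left out (adjusted p from 0.0546 to 0.0724), with DESeq2's size factors (0.0517) and with total counts (0.109).

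Foxl2, the factor that keeps granulosa cells from a Sertoli fate, was called higher in 3 of the 4 comparisons, with log2 fold changes of 0.61 (SE 0.19, adjusted p = 0.00715) in IVF ovaries at 12 weeks, 0.66 (SE 0.21, adjusted p = 0.0106) in Natural ovaries at 39 weeks and 0.91 (SE 0.19, adjusted p = 0.00018) in IVF ovaries at 39 weeks. In Natural ovaries at 12 weeks the value was 0.43 (SE 0.22, adjusted p = 0.107). The Natural 39-week call was lost without E18.5 Natural ovary 3 (adjusted p = 0.0566) and with total counts (0.0828). Runx1 was called higher in Natural ovaries at 12 weeks (1.10, SE 0.34, adjusted p = 0.00898) and 39 weeks (0.95, SE 0.33, adjusted p = 0.0157) and in IVF ovaries at 39 weeks (0.77, SE 0.29, adjusted p = 0.0221). The first of these had an adjusted p of 0.168 without 12-week Natural ovary 1 and the last 0.117 without 39-week IVF ovary 1, the ovaries with the highest Runx1 of their groups, and 0.122 with total counts.

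Total-count scaling moved the median log2 fold change of all genes from -0.04 to -0.22 in Natural and from 0.04 to -0.20 in IVF ovaries at 39 weeks against E18.5, and the share of calls that were higher from 48.1% to 36.9% and from 53.4% to 39.3%. Lgr5 spanned 28.4 to 76.7 CPM at E18.5 and 11.2 to 102 CPM in adults, and Bmp2 11.5 to 41.8 and 11.4 to 56.8 CPM, so that their fetal values lay inside or nearly inside their adult spread.

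**Figure D4:**
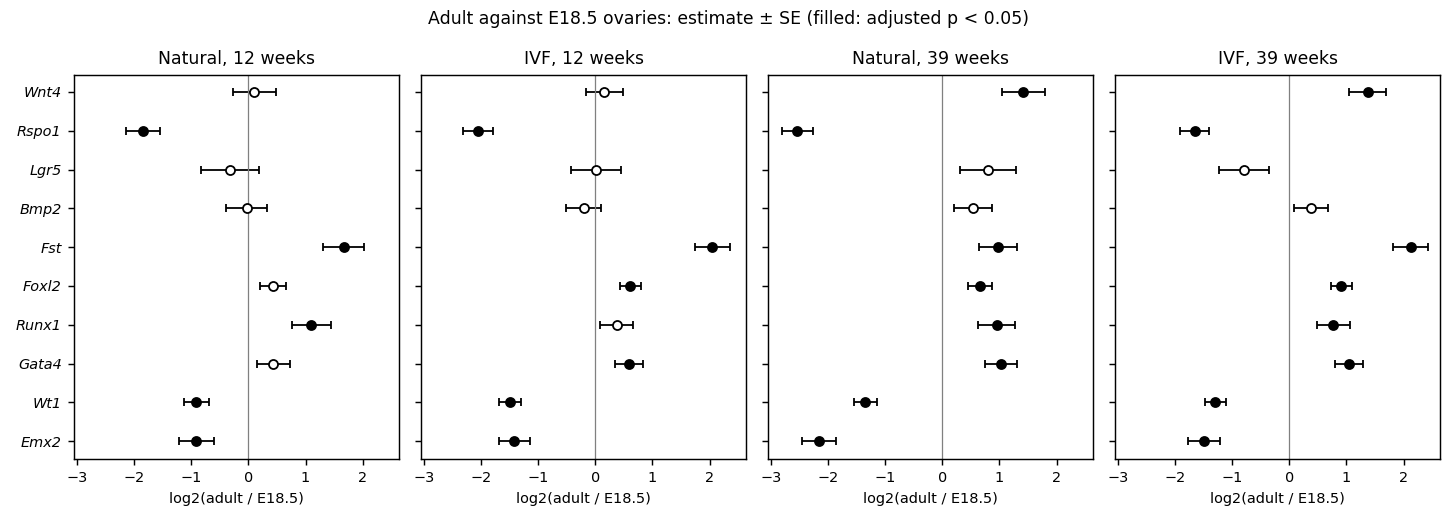
Log2 fold changes of 12-week and 39-week ovaries over E18.5 ovaries for the 10 genes, within Natural and within IVF, with bars of ± 1 SE and filled points for called genes. Rspo1, Wt1 and Emx2 lie below 0 in all 4 comparisons, Fst above 0 in all 4, and Lgr5 and Bmp2 have no filled point.

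The neighbours of the 10 genes in the same pathways were counted on lists written by hand. At E18.5, where 5.43% of the 16415 genes tested were called for IVF, none of 40 tested genes of the Wnt pathway was. Nor was any of 26 BMP and activin genes, 14 genes of the bipotential gonad or 9 genes of the testis programme. Their median log2 fold changes were 0.06, -0.03, 0.16 and -0.09, against 0.00 over all genes. Of 11 other pregranulosa genes, with a median of -0.05, 1 was called, Hey2, a Notch target, which fell by 1.06 on the log2 scale (SE 0.28, adjusted p = 0.0434). At 12 weeks no gene of these lists was called, beside 0.00567% of the 17628 genes tested. At 39 weeks the 41 tested Wnt genes had a median log2 fold change of 0.14, against 0.03 over all genes. The only call in the 5 lists was Fzd5, a Wnt receptor, beside 0.262% of the 17186 genes tested. It was lower by a log2 fold change of -1.08 (SE 0.18, adjusted p = 0.0464). Lgr5 and Bmp2 were called at E18.5 and no listed Wnt receptor, Wnt antagonist or BMP receptor was, beside 5.43% of all genes. Whether these neighbours differ from the 10 genes in their response was not tested.

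For the difference of the IVF change between ages, a few neighbours were called and none of the 10 genes was. Of all 19724 genes, 7.95% were called between 39 weeks and E18.5 and 2.71% between 39 and 12 weeks. In the first contrast, 1 of 43 Wnt genes was called, with 2 higher and 2 lower of 11 other pregranulosa genes. Of 11 testis-side genes, 1 was higher and 1 lower, and no BMP, activin or bipotential gonad gene was called. Between 39 weeks and E18.5, Hey2 (1.80, SE 0.46, adjusted p = 0.0179), the orphan receptor Nr5a2 (1.41, SE 0.36, adjusted p = 0.0161), the Wnt receptor Fzd2 (0.79, SE 0.25, adjusted p = 0.0483) and the testis signal Fgf9 (2.13, SE 0.54, adjusted p = 0.0155) had positive values, and Kitl, the Kit ligand (-1.07, SE 0.34, adjusted p = 0.0488) and the receptor Notch2 (-0.73, SE 0.22, adjusted p = 0.0408) negative ones. Dmrt1 was called too, on counts of at most 16 in any ovary. Between 39 and 12 weeks, Wnt11 (3.62, adjusted p = 0.0403) and Fgf9 (2.17, adjusted p = 0.0386) were positive, and Fzd5 (-1.43, adjusted p = 0.0213) and Irx5 (-1.67, adjusted p = 0.0349) negative.

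With age, 25.3%, 30.8%, 25.8% and 32.7% of all genes were called higher and 24.3%, 28.2%, 27.8% and 28.5% lower in Natural and IVF ovaries at 12 weeks and Natural and IVF ovaries at 39 weeks, and the counts of each list below are in this order. Of 43 tested Wnt genes, 7, 8, 8 and 10 were called higher and 19, 25, 18 and 21 lower, with median log2 fold changes of -0.59, -0.64, -0.20 and -0.44 against 0.01, 0.01, -0.04 and 0.04 over all genes. Among those higher were Sfrp4, a secreted antagonist, with log2 fold changes of 7.03 to 8.06, and Lgr6, a relative of Lgr5, with 1.78 to 2.48. Among those lower were the antagonists Notum (-4.33 to -2.48) and Sfrp2 (-4.81 to -3.25) and the factor Lef1 (-3.37 to -2.37). Of 27 BMP and activin genes, 6, 9, 9 and 9 were higher and 10, 9, 8 and 8 lower. The inhibin subunit Inha (4.35 to 5.65) and the activin subunit Inhba (3.26 to 5.52), whose product follistatin binds, were higher in all 4, and the BMP target Id1 (-1.87 to -1.74), the antagonist Nog (-2.37 to -1.84) and Fstl1 (-2.20 to -1.76) lower. Grem1 had 0 to 7 counts in fetal ovaries and up to 2789 in adults.

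Of the 11 other pregranulosa genes, 4, 5, 6 and 6 were higher and 4, 4, 1 and 4 lower in the same order. Nr5a2 (log2 fold changes from 3.73 to 5.14), the estrogen receptor Esr2 (2.85 to 4.53) and the factor Foxo1 (1.46 to 2.48), all genes of growing follicles, were higher in all 4 comparisons. Of the 15 genes of the bipotential gonad, 2, 3, 2 and 2 were higher and 4, 8, 4 and 4 lower. Nr5a1, the steroidogenic factor, was higher (1.83 to 2.86), and Zfpm2, the GATA4 partner, was lower (-1.20 to -0.58). Of the 11 testis-side genes, 3, 3, 3 and 3 were higher and 5, 5, 3 and 3 lower. The 3 higher ones were Amh (4.67 to 6.05), Dhh (2.57 to 3.81) and Gdnf, which growing follicles also express, and Fgf9 was lower in all 4 (-4.54 to -2.41).

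The 10 genes did not vary as 1 block between ovaries of the same group. Over the 29 ovaries, after the 6 group means of log2 CPM were subtracted, Pearson's r was 0.69 for Foxl2 with Gata4, 0.63 for Fst with Gata4, 0.63 for Wt1 with Emx2 and 0.60 for Fst with Foxl2. The lowest value of any pair was -0.59, for Bmp2 with Wt1. Foxl2, Gata4 and Fst thus varied together, and Wt1 and Emx2 formed another pair. In its group, 39-week IVF ovary 1 was lowest in Foxl2, Gata4 and Fst and highest in Wt1 and Emx2. In its own group, E18.5 Natural ovary 3 was lowest in Foxl2, Gata4 and Fst. How far the r values rest on these ovaries was not tested. These values are descriptions over libraries of different ages and unequal depth.

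The genes most like the members other than Emx2 by the same measure are named for orientation. They were Clasp2 (0.87), Gm31135 (0.84) and Mturn (0.84) for Lgr5, Mier1 (0.87), Epc1 (0.84) and Tecta (0.82) for Bmp2, and Nxf3 (0.81), Akr1c14 (0.77) and Usp28 (0.77) for Fst. For Gata4 they were Tmem206 (0.91), Nr5a1 (0.84) and Tdrp (0.83), and for Foxl2 Pik3cd (0.83), Ddhd1 (0.82) and Hic2 (0.80). Rspo1 was most like Cldn15 (0.78), Msln (0.70), a marker on the surface epithelium list, and Zrsr1 (0.67). Wt1 was most like 2210407C18Rik (0.81), Calml4 (0.81) and Ptprk (0.80). Runx1 was most like Adamts1 (0.89), a protease induced at ovulation, Nts (0.79) and F3 (0.79), and Wnt4 most like Gm31084 (0.76), Gm40826 (0.75) and Palm3 (0.75).

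In purified cells the 10 genes separated by cell type. In PGCs at E13.5, with totals of 4364495 to 8675189 counts per library, every one of them was at 53 counts or fewer, and Foxl2 had no count in any of the 9 libraries, which allows a level of up to 0.346 to 0.687 CPM per library. Germ cell markers summed to 2206 to 7567 CPM in these libraries. Only Rspo1 passed the filter on low counts, and 0 of 1 was called (adjusted p = 1.00), beside 0% of 12763 genes, with 0 at an unadjusted p below 0.05 and 0 called by DESeq2. The highest values were 5.22 CPM for Wt1 and 3.94 CPM for Rspo1, both in Natural library 2.

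In cumulus cells at 12 weeks, with totals of 2532824 to 6345249 counts, Fst, Runx1, Gata4 and Wnt4 were well measured, and Rspo1, Wt1, Bmp2 and Emx2 were near 0. Per kilobase, the Natural medians were 67.4 CPM for Fst, 9.09 for Gata4, 8.39 for Runx1 and 7.13 for Wnt4. Foxl2 was at 0.966 to 5.95 CPM in all 10 libraries, against 102 to 380 CPM in whole ovaries, which were prepared with another kit, while growing granulosa markers summed to 3760 to 7107 CPM. Of the 10 genes 6 were tested and 0 called, beside 0.00973% of 10280 genes, with 0 at an unadjusted p below 0.05 and 0 called by DESeq2 (beside 0.456%).

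Fst in cumulus cells followed the naming of the libraries and not conception. It measured 54.6, 83.2, 589, 309 and 526 CPM in Natural libraries 1 to 5 and 431, 371, 513, 65.2 and 68.2 CPM in IVF libraries 1 to 5. The 4 libraries of 1 naming scheme, Natural 1 and 2 and IVF 4 and 5, lay at 54.6 to 83.2 CPM, and the 6 of the other at 309 to 589 CPM. The set was a term of the cumulus model, as both kinds of name occurred in each group. On low counts, Foxl2 (0.966 to 1.64 and 1.75 to 5.95 CPM) and Emx2 (0.325 to 0.966 and 1.05 to 3.44 CPM) split by the same sets. Lgr5 was at 2.15 to 4.30 CPM in 8 libraries and at 14.1 and 17.5 CPM in IVF libraries 4 and 5, which belong to the first set, and had the smallest adjusted p of the tested genes, 0.844. Runx1 lay at 80.4 to 108 CPM in Natural and 51.6 to 124 CPM in IVF libraries, and Gata4 at 27.4 to 76.8 and 36.8 to 59.9 CPM, with wide overlap. One Natural library has a name that shares fields with IVF oocyte libraries.

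In single oocytes at 12 weeks, with totals of 839781 to 10879166 counts, Gata4 was counted in all 76 cells, at 18 to 1253 counts per oocyte. Summed per donor set, as read from the library names, it measured 79.7, 56.7, 50.9, 40.7 and 30.5 CPM in Natural sets and 86.4, 36.5, 42.6, 40.7 and 70.4 CPM in IVF sets. The ranges overlapped, with the highest value in an IVF set and the lowest in a Natural set. The 5 sets of each group carry only 2 first numbers, and the labels do not say that a set is 1 donor, so the sets may not be independent. Of the 10 genes 6 were tested and 0 called (adjusted p from 0.917 to 0.992), beside 0.0277% of 14444 genes, with 0 at an unadjusted p below 0.05 and 0 called by DESeq2 (beside 0.319%). Emx2 was counted in 26 of 40 IVF and 23 of 36 Natural oocytes, Foxl2 in 1 and 4, and Bmp2 in 0 and 2.

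Fst, Runx1 and Wnt4, the genes most abundant in cumulus cells beside Gata4, were found together in the same oocytes. Of 39 oocytes with a Fst count, 32 had Runx1 and 27 had Wnt4 counts, and of 37 without, 6 and 5 did. Emx2 showed no such split, with counts in 25 of the 39 and 24 of the 37. Growing granulosa markers summed to 166 to 272 CPM in the oocyte sets, against 3760 to 7107 CPM in cumulus libraries. Their part in the 3 genes' counts was not tested.

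In oocytes at 39 weeks the labels name no donor, so each conception group counts as 1 sample, and values are given without a test. Totals were 2820748 to 31126357 counts (median 18035837) in IVF and 5959480 to 18374296 (median 12276020) in Natural oocytes. The numbers of oocytes with a count below therefore come from unequal depth. Emx2 was counted in all 10 IVF oocytes, at 4 to 464 counts with a median of 62, and in 4 of 9 Natural oocytes, at 8 to 35 counts. Pooled over oocytes it was 5.59 CPM (exact 95% Poisson interval 5.25 to 5.95) in IVF and 0.676 CPM (0.530 to 0.850) in Natural. Without the oocyte with most Emx2 counts in each group, IVF oocyte 8 (464 of 1001 counts) and Natural oocyte 4 (35 of 73), these were 3.63 CPM (3.33 to 3.95) and 0.373 CPM (0.264 to 0.511). Gata4 went the other way, with 6.53 CPM (6.16 to 6.91) in IVF and 31.8 CPM (30.8 to 32.9) in Natural, and 1 Natural oocyte held 1774 of the 3437 Natural counts, with 18.6 CPM (17.7 to 19.5) without it. Lgr5 was counted in 7 of 10 IVF and 4 of 9 Natural oocytes, at 1.03 CPM (0.889 to 1.19) and 0.0556 CPM (0.0204 to 0.121) pooled, and at 0.605 CPM in IVF without the oocyte with 87 of the 185 counts. Wnt4 had 2 counts in IVF and 54 in Natural oocytes, 40 of them in 1 oocyte, and Foxl2 and Bmp2 had none. These intervals cover counting error only, and oocytes of 1 group differed by far more. The values of Emx2 in the 12-week oocytes, 2.79 CPM pooled over IVF and 2.25 CPM over Natural, did not show the same gap.

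**Figure D5:**
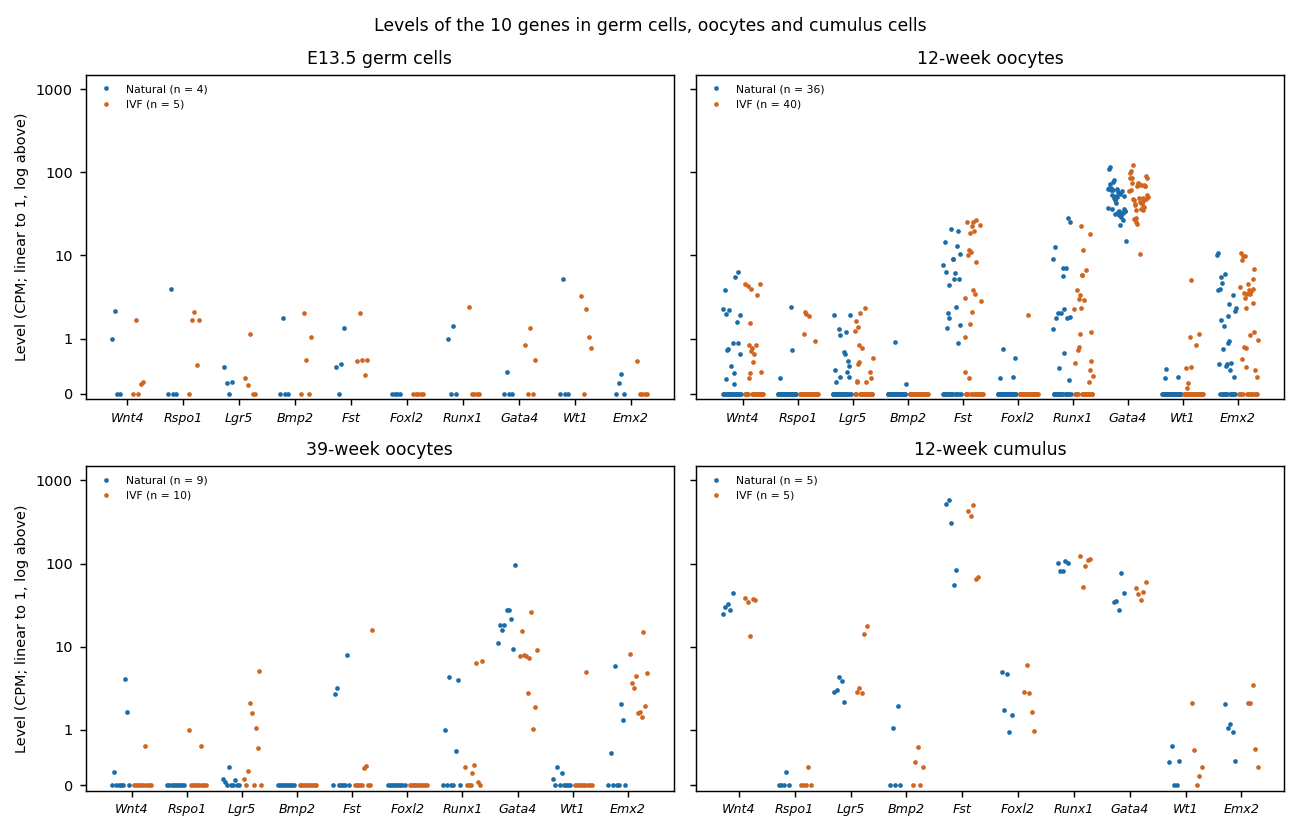
Levels of the 10 genes in each PGC library, single oocyte and cumulus library, in CPM on an axis that is linear up to 1 and logarithmic above, with Natural and IVF as separate points. Gata4 is present in every oocyte of 12 weeks (10.4 to 122 CPM) and cumulus cells (27.4 to 76.8 CPM) and at most 1.34 CPM in PGCs, and cumulus Fst falls into a group at 54.6 to 83.2 CPM and another at 309 to 589 CPM.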

How the data were processed

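RNA-seq counts of 29 ovaries, 9 PGC libraries, 76 and 19 single oocytes and 10 cumulus libraries were used. The authors deposited raw read counts for each gene. The submitters' processing notes name Trimmomatic 0.32, STAR 2.3.0e, featureCounts 1.5.0, DESeq2 and the build mm10, and the methods name trimgalore for the low-input libraries. All values were whole numbers. In the tables of the ovaries, 27 gene names had turned into numbers, none of them one of the 10 genes. Ovary RNA was made into mRNA libraries, and low-input RNA was amplified with a modified SMART-Seq protocol, so levels are compared between these kinds of library only side by side.

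Each table was fitted with edgeR 4.0.16 in R 4.3.3 (TMM factors, filterByExpr, quasi-likelihood test, two-sided, Benjamini-Hochberg adjustment over all tested genes), and the 3 ovary tables were also fitted together for age and its interaction with conception. Oocytes of 12 weeks were summed per donor set read from library names, the cumulus model had the naming scheme of the libraries as a term, and oocytes of 39 weeks were not tested. Correlations used log2 CPM with a prior count of 2. Alternatives were DESeq2 1.42.0, DESeq2's size factors, total counts, no filter, leaving out each library, and the replicate number as a block. The last was not used in the main design, since ovaries of the same number did not all deviate together. DESeq2 and edgeR were tested on simulated counts. Exon lengths came from GENCODE M21, and figures were drawn with matplotlib 3.10.9.

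The 10 genes, the pathway and marker lists and the tests were chosen with earlier results of these data known. Of the pathway lists, the text names genes that were called or, where more than 5 were, that were among the 3 largest or 3 smallest log2 fold changes of the called genes in at least 1 comparison. Precision for genes with few reads is set by the total count of each library, given with the results. Cumulus cells of 39 weeks and the other assays were not analysed here, and the genes most like Emx2 are not reported here. No value column was left unassigned to a sample.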

Additional observations from a re-analysis of the deposited data

Results flagged for a closer look

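In 8 of the 86 combinations of gene and group examined, the highest or lowest library stood apart from the rest of its group by Dixon's criterion, which chance alone meets in about 1 of 20 groups.

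The 39-week IVF ovary 1, which stood apart in 2 genes, was the ovary with the high oviduct and surface epithelium markers. Its Emx2 was 86.2 CPM, where the next ovary had 37.4 CPM, and its Foxl2 was 166 CPM, where the next had 330 CPM. In 39-week Natural ovaries, Emx2 was 43.9 CPM in ovary 2 with 25.2 CPM in the next, and Lgr5 was 102 CPM in ovary 1 with 69.6 CPM in the next. At 12 weeks, Wt1 was 123 CPM in IVF ovary 2, with 93.8 CPM in the next IVF ovary. At E18.5, Wnt4 was 185 CPM in IVF ovary 4, with 135.02 CPM in the next.

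In the low-input libraries, Rspo1 was 3.94 CPM in PGC Natural library 2, while the other 3 Natural libraries had no Rspo1 count. Wnt4 was 13.4 CPM in cumulus IVF library 3, the lowest of its group, with 34.4 CPM in the next.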

How the results depend on the processing

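The number of the 10 genes called for IVF against Natural was 2 at E18.5 and ranged from 0 (without IVF ovary 2 or IVF ovary 4) to 4 (without Natural ovary 1) when 1 ovary was left out, was 0 at 12 weeks in each such case, and ranged from 0 to 1 at 39 weeks, the 1 being Fst without IVF ovary 1. DESeq2 called 3, 1 and 1 of the 10 at the 3 ages, beside 10.5%, 3.42% and 6.66% of the genes it tested. For the difference of the IVF change between ages, DESeq2 called 1 gene (Lgr5, 39 against 12 weeks), and leaving out 1 ovary gave 0 to 1 for 39 weeks against E18.5 and 0 to 1 for 39 against 12 weeks. The shares of all genes called with 1 ovary left out are not given here. A rise or fall in these counts therefore cannot be read as particular to the 10 genes. Over ovaries left out, 5 estimates changed sign: Fst (-0.026 to 0.43) and Emx2 (-0.12 to 0.22) at E18.5, Runx1 at 12 weeks (-0.57 to 0.28), and Runx1 (-0.039 to 0.39) and Wt1 (-0.087 to 0.38) at 39 weeks. The cause of these changes was not tested.

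Replicate numbers did not pair the samples, since same-numbered ovaries did not all deviate together (r from -0.13 to 0.01 at E18.5, -0.36 to 0.25 at 12 weeks and -0.0062 to 0.40 at 39 weeks). With the replicate number as a replicate block, 0 of the 10 genes were called at E18.5, with Lgr5 at a log2 fold change of 0.76 (adjusted p = 0.192) and Bmp2 at 0.90 (adjusted p = 0.236), 0 at 12 weeks and 1 at 39 weeks, Fst at 1.32 (adjusted p = 0.0294), and 5, 6, 8 and 9 in the 4 comparisons with age. The shares of all genes called with this block are not given here, so these counts cannot be read as particular to the 10 genes. No such block was fitted to the oocyte donor sets.

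In simulations every gene had 1 assumed spread between libraries, larger for low-input libraries than for ovaries and not estimated from these data. With that spread edgeR recovered 77% to 86.9% of 2-fold changes between Natural and IVF ovaries of 1 age. It recovered 62.6% between Natural ovaries at 12 weeks and E18.5 and 31.3% in the difference of the IVF change between 39 and 12 weeks. In PGCs, oocytes and cumulus cells it recovered 2.04% to 3.16%. For genes of the assumed spread, 2-fold differences in the low-input libraries were thus hardly detectable, and most in that interaction were missed. Genes that vary more or less than assumed are not covered by these shares.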
